A study of Mus musculus with 19 samples.

Results

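A set of 10 genes that direct the making of granulocytes and carry the signal of the colony-stimulating factors was followed in blood leukocytes of B6 and DBA/2 mice after administration of CAWS, the water-soluble fraction of Candida albicans: the transcription factors Cebpa, Cebpb, Cebpd, Cebpe, Gfi1 and Sfpi1 (PU.1), and the receptor chains Csf3r, Csf2ra, Csf2rb1 and Csf2rb2. They were taken by name, as all non-control probes of the array whose gene name was one of the 10. Of the 10 genes, 9 were found, among the 27745 gene names of the array, through 13 of its 41174 probes, and 12 of the 13 entered the test. No probe carries the name Cebpe, which was not analysed here. Where a gene had several probes, the one with the highest mean signal over the samples stands for it unless another is named.

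The mice were males of 5 to 14 weeks of age. All of them, those at 0 w included, received CAWS by intraperitoneal injection on 5 consecutive days, and weeks are counted from the last injection, so 0 w is the starting point of the time course and not an uninjected control. Blood was taken at 0, 2, 4, 8 and 9 w, and total RNA of leukocytes held on a filter from whole blood was hybridised in 1 colour. The 18 samples fall into 10 strain-by-week groups of 2 samples each, except B6 at 2 w and B6 at 9 w with 1 sample each. The study's methods describe cRNA from individual mice on each array, while the label of DBA/2 2 w replicate 2 calls it a technical replicate.

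Granulocytes arise in bone marrow from progenitors in which PU.1 and C/EBPalpha set the myeloid fate. C/EBPepsilon and Gfi1 act in the later maturation of neutrophils, and C/EBPbeta is known for granulocyte production under infection or cytokine stress, while C/EBPdelta is an acute-phase factor that rises in inflamed cells. Csf3r is the receptor of G-CSF, the main growth factor of neutrophils, and it is carried by neutrophils and their precursors. Csf2ra is the ligand-binding chain of the GM-CSF receptor. Csf2rb1 is the beta chain that the receptors for GM-CSF, IL-3 and IL-5 share, and Csf2rb2 is a mouse beta chain that serves IL-3 only. The last pair are near-identical neighbours on chromosome 15, and whether a probe of one also binds transcripts of the other was not tested.

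The array's own annotation places the probes on the mouse build mm8: Csf3r at chr4:125546354-125546413, Csf2ra at chr19:61279096-61279155, Csf2rb1 at chr15:78177993-78178052, Csf2rb2 at chr15:78109951-78110010, Cebpa at chr7:34830258-34830317, Cebpb at chr2:167381552-167381610, Cebpd at chr16:15801944-15802003, Gfi1 at chr5:107957135-107957194 and Sfpi1 at chr2:90900347-90914134. No gene annotation of that build was used here, so exon and UTR are not stated. Csf3r, Csf2ra and Csf2rb2, which passed the test together from 4 w on in DBA/2 mice, have an entry in RefSeq's promoters, and the 250 bases before each start are shown, on the strand of the gene, on the build GRCm38.p6, at chr4:126024409-126024658 (plus strand), chr19:61228419-61228668 (minus strand) and chr15:78305722-78305971 (minus strand). Capitals mark matches to a C/EBP pattern, TTNNGNAA, or a PU.1 pattern, GAGGAA, each read on both strands.
Csf3r: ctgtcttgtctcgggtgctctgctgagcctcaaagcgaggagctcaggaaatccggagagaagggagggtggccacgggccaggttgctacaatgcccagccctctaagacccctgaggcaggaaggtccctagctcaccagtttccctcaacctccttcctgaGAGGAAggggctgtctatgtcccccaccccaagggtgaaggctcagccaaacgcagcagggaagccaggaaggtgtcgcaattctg
Csf2ra: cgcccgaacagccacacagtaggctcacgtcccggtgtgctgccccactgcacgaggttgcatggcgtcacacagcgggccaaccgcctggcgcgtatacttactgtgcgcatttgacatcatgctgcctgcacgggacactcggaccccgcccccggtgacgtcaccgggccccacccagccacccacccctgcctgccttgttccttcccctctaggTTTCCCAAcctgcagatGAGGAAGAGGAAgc
Csf2rb2: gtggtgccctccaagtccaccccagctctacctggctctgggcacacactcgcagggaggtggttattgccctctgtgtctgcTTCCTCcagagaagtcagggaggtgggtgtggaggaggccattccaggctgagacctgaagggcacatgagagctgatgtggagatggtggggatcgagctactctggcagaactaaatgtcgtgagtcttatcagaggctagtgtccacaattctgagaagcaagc

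The PU.1 pattern was found once before Csf3r, at 86 to 81 bases before the start. Before Csf2ra it was found at 14 to 9 and again at 8 to 3 bases before the start, as adjoining copies. Before Csf2rb2 it was found once, on the opposite strand as TTCCTC, at 167 to 162 bases before the start. The C/EBP pattern was found only in the Csf2ra window among these, on the opposite strand as TTTCCCAA, at 31 to 24 bases before the start. Of all 32851 promoter entries, 23.3% hold the PU.1 pattern and 36.8% the C/EBP pattern in a window of the same length, so that these matches are common and are given as a description. The promoters of Cebpa and Cebpb held neither pattern, and 1 of the 2 entries of Gfi1 held the C/EBP pattern. Cebpd, Csf2rb1, Sfpi1 and Cebpe are named only.

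Levels below are log2 of the processed signal minus the 75th percentile of the same array, taken over the 11536 probes that were well above background on all 19 arrays, so that 0 is the level of that percentile and 1 unit is a factor of 2. Between 33.9% and 51.4% of the 43379 spots of an array were well above background. The 3 markers of all leukocytes (Ptprc, Laptm5 and Coro1a) were well above background in every sample, and against 0 w Ptprc was higher at 4 w in DBA/2 mice and at 2, 8 and 9 w in B6 mice, where Laptm5 was lower at 2 w and Coro1a at 4 w. Replicates of a group correlated at r of 0.982 to 0.995 over probes, and the 2 replicates of B6 at 0 w and at 4 w were as alike (r = 0.995 in both) as 2 arrays of 1 RNA (r = 0.994). The DBA/2 pairs differed more (SD of the difference over probes 0.316 to 0.412, against 0.238 for the 2 arrays of 1 RNA). The p-values measure only the spread between these samples, which may be in part technical. All arrays of replicate 1 were scanned on 1 day and all of replicate 2 on another, so that a block by replicate number is also a block by scan day. DBA/2 9 w replicate 2 had 1187 outlier spots against 64 to 180 on the other arrays. Markers of hepatocytes stood high in B6 at week 0 (summed level 33.1 to 34.1 times the 75th percentile) and at week 8 (24.5 to 25.5), and were at or below 1.56 in all other groups. Samples of the 2 strains lay on different slides at 0, 4 and 8 w, as did DBA/2 at 9 w and at 0 w, so that slide cannot be told apart from these comparisons.

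Cebpb, Cebpd, Csf3r, Csf2rb1 and Csf2rb2 rose at every week after 0 w in DBA/2 mice, and Csf2ra from 4 w on. Sfpi1 was called higher at each of these weeks too, but its probe entered the test mainly through these same groups. Its calls are kept in the counts below and lend no support of their own. At 2 w, 6 of the 9 genes were higher (Cebpb, Cebpd, Csf3r, Csf2rb1, Csf2rb2 and Sfpi1) and none lower, where 15.7% of all tested probes were called, 7.91% as higher and 7.82% as lower. At 4 w, 7 of 9 were higher, with Csf2ra added, against 14.8% of probes called, 7.58% higher and 7.22% lower. The same 7 were higher at week 8 (24% called, 10% higher, 14% lower) and at week 9 (27.7% called, 13.4% higher), when Gfi1 was lower (14.3% of probes lower). The median log2 difference over the 9 genes was 0.82, 1.25, 1.57 and 1.33 at 2, 4, 8 and 9 w, beside -0.05, -0.10, -0.18 and -0.03 over all tested probes. With a normexp background correction in place of Agilent's, 2 genes passed at week 2 (Cebpd and Csf3r) and 4 at week 4 (with Cebpb and Csf2rb2). In these bulk samples a change in the number of cells of a type and a change in RNA per cell cannot be told apart, and neutrophil markers rose at each of these weeks too.

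In B6 mice Cebpd, Csf3r and Csf2rb1 rose at every week after 0 w, most of all at 8 w, with 1 sample only at 2 w and at 9 w. At 2 w, 3 of 9 were higher (Cebpd, Csf3r and Csf2rb1, with 13% of probes called, 5.28% higher, 7.74% lower). At 4 w, 4 were higher, with Csf2rb2 added, and Gfi1 was lower (15.7% called, 6.02% higher, 9.66% lower). At 8 w, 5 were higher, namely Cebpd and all 4 receptor chains (21.2% called, 11% higher, 10.2% lower). At 9 w, 6 were higher, with Cebpb added (9.33% called, 5.48% higher, 3.86% lower). The median over the 9 genes was 0.13, 0.38, 1.18 and 0.79, beside 0.08, -0.03, -0.04 and 0.00395 over all tested probes. With normexp the limma calls at weeks 2 and 4 were lost (1 and 2 of the 9 genes had an unadjusted p under 0.05), and 1 gene passed at 9 w. Without either replicate of B6 at 0 w, or without either replicate of B6 at 4 w, the count at 4 w was 3 in place of 5.

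**Figure D1:**
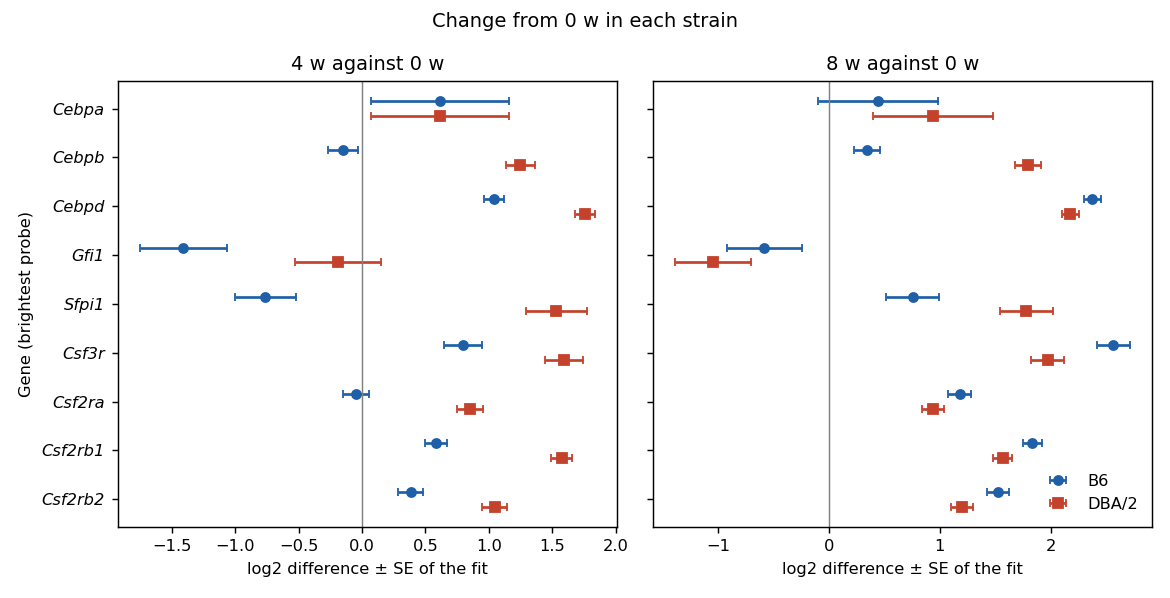
The log2 difference against 0 w of each gene's brightest probe is plotted for B6 mice (blue circles) and DBA/2 mice (red squares) at week 4 (left) and 8 w (right), with bars of 1 SE of the fit. At 4 w Cebpb stands at -0.15 in B6 and 1.25 in DBA/2 mice. At 8 w the change is larger in B6 mice for the receptor chains and Cebpd, most of all for Csf3r. None of these differences passed in the main fit. Sfpi1 and Gfi1 rest partly on samples not well above background.

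Csf3r, the G-CSF receptor, spanned the widest range of levels among the receptor chains. In B6 mice its level was -1.49 and -1.53 at 0 w, -0.70 at 2 w, -0.65 and -0.78 at 4 w, 1.13 and 0.97 at 8 w and 0.22 at 9 w. In DBA/2 mice it was -0.49 and -0.62 at 0 w, 0.79 and 0.60 at 2 w, 1.15 and 0.92 at 4 w, 1.64 and 1.20 at 8 w and 1.09 and 1.04 at 9 w. Every sample after 0 w stood above both 0 w samples of its strain, and the DBA/2 samples at 0 w stood between B6 at 4 w and B6 at 9 w. The rise in DBA/2 mice was 2.38-fold at week 2 (log2 1.25, SE 0.15, adjusted p = 0.000747), 3.01-fold at week 4 (adjusted p = 0.000126), 3.93-fold at week 8 (adjusted p = 1.76e-05) and 3.08-fold at week 9 (adjusted p = 7.48e-05). In B6 mice it was 1.76-fold at week 2 (adjusted p = 0.0171), 1.74-fold at week 4 (adjusted p = 0.0071), 5.91-fold at week 8 (log2 2.56, SE 0.15, adjusted p = 4.63e-06) and 3.33-fold at week 9 (adjusted p = 0.000359). In the order of the weeks, DBA/2 neighbours among 2, 4, 9 and 8 w did not differ beyond their spread (adjusted p of 0.141 to 0.927). In B6 mice the only sample at 9 w stood above the only sample at 2 w by 0.92, and below both samples at 8 w. The B6 samples at 2 w and 9 w lay on different slides scanned on different days, which cannot be told apart from the week. Within the 2 slides that each held DBA/2 at 0 to 8 w, the difference was 1.64 and 1.55 at 4 w and 2.13 and 1.82 at 8 w. The call in B6 mice at 2 w was lost without either replicate of B6 at week 0 (highest adjusted p = 0.0688).

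**Figure D2:**
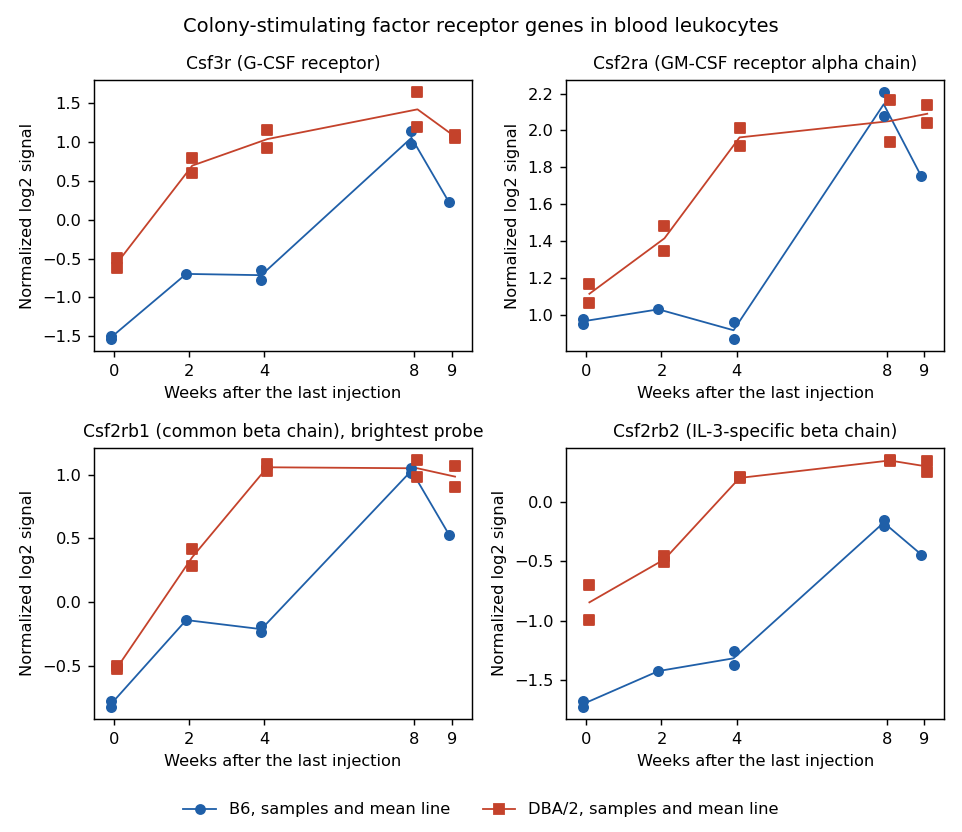
Each point is the normalized log2 signal of 1 sample for a receptor chain, by weeks after the last injection, in B6 mice (blue circles) and DBA/2 mice (red squares), with lines through the group means. By the brightest probe of each chain, DBA/2 samples stand above B6 samples at 4 w for all 4 chains, and at 8 w the strains overlap for Csf2ra and Csf2rb1.

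Csf2ra, the GM-CSF-binding chain, first passed the test at 4 w in DBA/2 mice and at 8 w in B6 mice. In B6 mice its level was 0.98 and 0.95 at 0 w, 1.03 at 2 w, 0.96 and 0.87 at 4 w, 2.21 and 2.08 at 8 w and 1.75 at 9 w. Its DBA/2 level was 1.16 and 1.06 at 0 w, 1.48 and 1.35 at 2 w, 2.01 and 1.91 at 4 w, 2.17 and 1.94 at 8 w and 2.04 and 2.14 at 9 w. B6 samples at 0, 2 and 4 w lay together, and DBA/2 samples at 4, 8 and 9 w formed 1 band. The DBA/2 difference was 0.30 on the log2 scale at week 2 (SE 0.10, adjusted p = 0.0818, and 0.0288 with the replicate block), and the gene rose 1.80-fold at week 4 (adjusted p = 0.000588), 1.92-fold at week 8 (adjusted p = 0.000169) and 1.97-fold at week 9 (adjusted p = 0.000149). In B6 mice the differences at weeks 2 and 4 were 0.06 and -0.05 (adjusted p = 0.854 and 0.85), and the gene rose 2.26-fold at week 8 (adjusted p = 5.16e-05) and 1.73-fold at week 9 (adjusted p = 0.00415).

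Csf2rb1, the shared beta chain, rose at every week after 0 w in both strains by its brightest probe. The B6 levels were -0.78 and -0.82 at 0 w, -0.14 at 2 w, -0.19 and -0.24 at 4 w, 1.05 and 1.01 at 8 w and 0.53 at 9 w. The DBA/2 levels were -0.51 and -0.53 at 0 w, 0.42 and 0.29 at 2 w, 1.08 and 1.03 at 4 w, 1.12 and 0.98 at 8 w and 1.07 and 0.90 at 9 w. No week overlapped 0 w in its strain, and DBA/2 neighbours among 9, 8 and 4 w did not differ beyond their spread (adjusted p of 0.655 and 0.98). The rise was 1.82-fold, 2.98-fold, 2.96-fold and 2.83-fold at 2, 4, 8 and 9 w in DBA/2 mice (adjusted p = 0.000298, 4.9e-06, 2.13e-06 and 5.56e-06), and 1.58-fold, 1.5-fold, 3.56-fold and 2.51-fold in B6 mice (adjusted p = 0.00263, 0.00199, 1.23e-06 and 6.19e-05).

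The other probes of Csf2rb1 did not show this. A probe at chr15:78173681-78173943, well above background in 17 of 18 samples, lay between -0.23 and 0.28 in every DBA/2 sample, with differences against 0 w of 0.00 at 2 w, -0.08 at week 4 (adjusted p = 0.884) and -0.05 at week 8 (adjusted p = 0.889). In B6 mice it lay between -0.07 and 0.35 at 0, 2 and 4 w, at -0.42 and -0.65 at 8 w and at -0.38 at 9 w, with a difference of -0.67 at week 8 (adjusted p = 0.0515), opposite in sign to the brightest probe. Its spot in DBA/2 9 w replicate 2 was an outlier and was left out. A further probe at chr15:78175465-78175524 was well above background in 4 of 18 samples. Averaging the tested probes of the gene took away most of its calls, for example at 4 w in DBA/2 mice (0.56, adjusted p = 0.104) and at 8 w in B6 mice (0.58, adjusted p = 0.0713). The rise of Csf2rb1 is thus that of 1 of its probes, and which transcripts each probe reads was not tested.

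**Figure D3:**
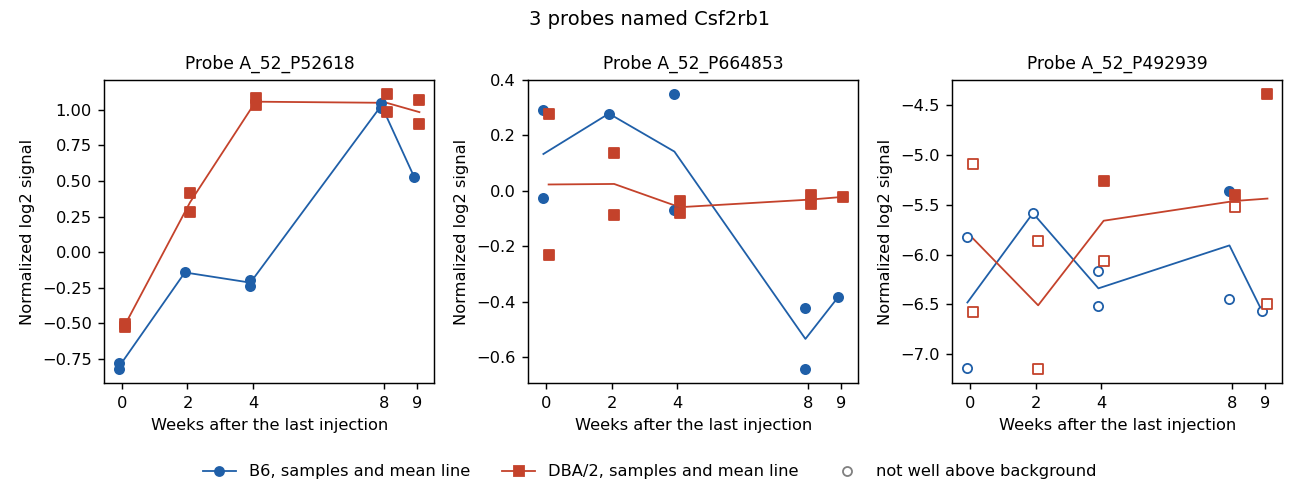
Normalized log2 signal of the 3 probes of Csf2rb1 by weeks after the last injection, 1 point a sample, blue circles for B6 and red squares for DBA/2 mice, lines through the group means and hollow points for samples not well above background. Only the first probe rises in both strains, the second stays near 0 in DBA/2 mice and lies at -0.42 and -0.65 at 8 w in B6 mice, and the third is mostly not well above background.

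Csf2rb2, the beta chain of the IL-3 receptor, was measured with 1 probe. Its B6 levels were -1.73 and -1.67 at 0 w, -1.42 at 2 w, -1.26 and -1.38 at 4 w, -0.20 and -0.15 at 8 w and -0.44 at 9 w. Its DBA/2 levels were -0.99 and -0.70 at 0 w, -0.51 and -0.46 at 2 w, 0.20 and 0.21 at 4 w, 0.35 and 0.36 at 8 w and 0.35 and 0.25 at 9 w. All DBA/2 samples from 4 w on stood above every B6 sample. The gene rose 1.29-fold at 2 w in DBA/2 mice (adjusted p = 0.0359), 2.07-fold at week 4 (adjusted p = 0.000129), 2.29-fold at week 8 (adjusted p = 3.02e-05) and 2.21-fold at week 9 (adjusted p = 5.12e-05). In B6 mice the difference was 0.28 at week 2 (adjusted p = 0.197), and it rose 1.3-fold at week 4 (adjusted p = 0.0286), 2.88-fold at week 8 (adjusted p = 8.93e-06) and 2.39-fold at week 9 (adjusted p = 0.0002). The call at 2 w in DBA/2 mice was lost in 11 of 18 fits that left out 1 sample, and that at 4 w in B6 mice in 4 of 18, without either replicate of B6 at 0 w or at 4 w.

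Cebpd, the acute-phase C/EBP factor, rose at every week in both strains. In B6 mice its level was 0.36 and 0.41 at 0 w, 1.17 at 2 w, 1.41 and 1.45 at 4 w, 2.74 and 2.79 at 8 w and 2.41 at 9 w. Its level in DBA/2 mice was 1.39 and 1.35 at 0 w, 2.72 and 2.75 at 2 w, 3.09 and 3.16 at 4 w, 3.46 and 3.63 at 8 w and 3.12 and 3.09 at 9 w. No week overlapped 0 w in its strain, and DBA/2 mice at 0 w already lay just below B6 mice at 4 w. The rise was 2.58-fold, 3.38-fold, 4.52-fold and 3.33-fold at 2, 4, 8 and 9 w in DBA/2 mice (adjusted p = 2e-05, 1.84e-06, 1.53e-07 and 1.72e-06) and 1.72-fold, 2.06-fold, 5.19-fold and 4.06-fold in B6 mice (adjusted p = 0.000436, 3.23e-05, 1.87e-07 and 3.43e-06). The order of the weeks was 0, 2, 9, 4 and 8 w in DBA/2 mice, in which 9 w and 4 w did not differ beyond their spread (adjusted p = 0.912). In B6 mice it was 0, 2, 4, 9 and 8 w, with 1 sample only at 2 w and at 9 w.

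Cebpb, the factor of stress granulopoiesis, rose from a lower start in DBA/2 mice. In B6 mice its level was 0.94 and 0.92 at 0 w, 1.06 at 2 w, 0.84 and 0.72 at 4 w, 1.35 and 1.20 at 8 w and 1.61 at 9 w. In DBA/2 mice it was 0.26 and 0.08 at 0 w, 1.04 and 0.95 at 2 w, 1.48 and 1.36 at 4 w, 2.04 and 1.88 at 8 w and 1.63 and 1.36 at 9 w. The DBA/2 samples at 0 w were the lowest of all 18, and those at 8 w the highest. The rise in DBA/2 mice was 1.77-fold, 2.38-fold, 3.46-fold and 2.51-fold at 2, 4, 8 and 9 w (adjusted p = 0.00179, 0.000122, 6.43e-06 and 5.73e-05). In B6 mice the differences were 0.13 at week 2 (adjusted p = 0.687), -0.15 at week 4 (adjusted p = 0.482) and 0.34 at week 8 (adjusted p = 0.0696, and 0.00701 with the replicate block), and the gene rose 1.6-fold at 9 w, in the only sample of that week (adjusted p = 0.018), a call lost without either replicate of B6 at week 0 (highest adjusted p = 0.0702). A second probe, at chr2:167381014-167381073, gave 0.69, 1.10, 1.47 and 1.43 in DBA/2 mice (adjusted p = 0.00346, 0.000195, 1.79e-05 and 2.99e-05), and 0.37 in B6 mice at 8 w, where it passed (adjusted p = 0.0425).

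Where a slide held both weeks, the differences within it are given for the brighter genes. Within the slides with DBA/2 at 0 to 8 w of 1 replicate each, the difference at 4 w was 1.70 and 1.81 for Cebpd, 1.22 and 1.28 for Cebpb, 0.85 and 0.85 for Csf2ra, 1.59 and 1.56 for Csf2rb1 and 1.19 and 0.91 for Csf2rb2. Within the 2 slides that held B6 at weeks 0 and 4 it was 0.84 and 0.79 for Csf3r, 1.04 and 1.08 for Cebpd, 0.59 and 0.60 for Csf2rb1, 0.47 and 0.25 for Csf2rb2 and -0.11 and -0.22 for Cebpb. Only 1 slide held B6 at weeks 0 and 8, with 2.54 for Csf3r, 2.42 for Cebpd, 1.84 for Csf2rb1, 1.48 for Csf2rb2, 1.22 for Csf2ra and 0.25 for Cebpb. The dim genes differed between slides, with -0.34 and 1.81 for Cebpa in B6 mice at 4 w, and -0.17 and -1.15 at 2 w and 0.16 and -0.54 at 4 w for Gfi1 in DBA/2 mice. For Sfpi1 in DBA/2 mice it was 1.32 and 1.75 at 4 w.

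**Figure D4:**
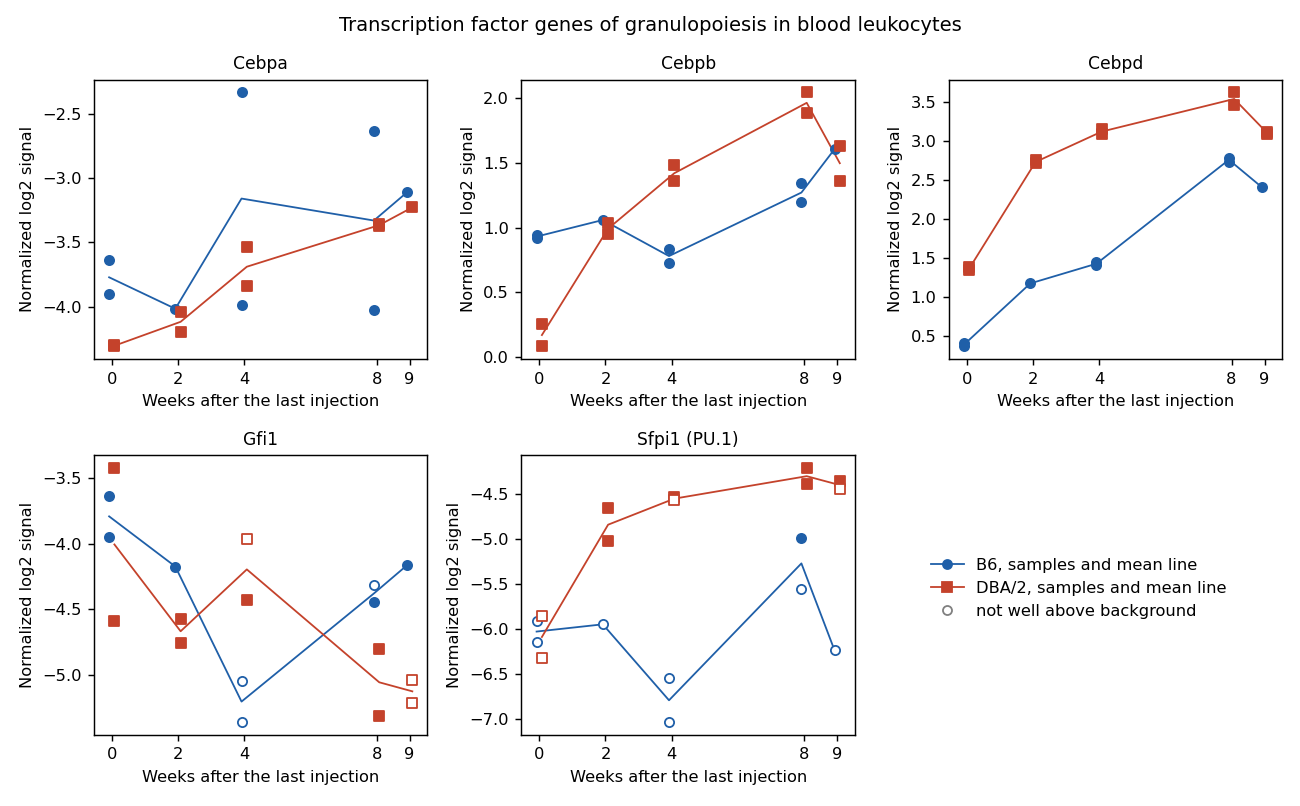
Normalized log2 signal of the 5 transcription factor genes by weeks after the last injection, 1 point a sample, blue circles for B6 and red squares for DBA/2 mice, lines through the group means and hollow points for samples not well above background. Cebpd rises in both strains, Cebpb in DBA/2 mice lies below the B6 level at 0 w, above it at weeks 4 and 8, and at 1.63 and 1.36 against 1.61 at 9 w, and Gfi1 and Sfpi1 hold hollow points in several groups.

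Cebpa, the factor of the granulocyte and macrophage progenitor, was dim, at -4.31 to -2.33 on the log2 scale, and its replicates disagreed. At 4 w in B6 mice it was -3.98 and -2.33, and at 8 w -4.03 and -2.63, against -3.64 and -3.90 at 0 w, so that the groups overlapped. In DBA/2 mice it was -4.31 and -4.30 at 0 w, -4.20 and -4.04 at 2 w, -3.54 and -3.84 at 4 w, -3.38 and -3.36 at 8 w and -3.23 in the 1 usable sample at 9 w, above both 0 w samples at each week. None of the 8 differences against 0 w passed in the fit over all groups (differences at 4, 8 and 9 w in DBA/2 mice of 0.62, 0.94 and 1.08, SE 0.54 to 0.67, adjusted p = 0.559, 0.27 and 0.279). Fitted with each strain alone, those 3 passed. A second probe was not well above background in any sample.

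Gfi1, a repressor needed for neutrophil maturation, was well above background in 12 of 18 samples. Its level was -3.63 and -3.95 at 0 w in B6 mice and -5.04 and -5.36 at 4 w, where neither sample was well above background, and it was at least 1.96-fold lower (adjusted p = 0.0219). In DBA/2 mice it was -4.59 and -3.43 at 0 w and -5.21 and -5.04 at 9 w, where neither sample was well above background, at least 1.58-fold lower (adjusted p = 0.0364). With normexp the second difference turned to 0.78, where the median of all probes stood at 0.78 too, and with no filter on dim probes, with array weights or with each strain fitted alone it did not pass. Leaving out 1 sample ended that call in 7 of 18 fits and the call in B6 mice at 4 w in 4 of 18, those without a replicate of B6 at 0 w or 4 w. At 8 w the DBA/2 difference was -1.05 (adjusted p = 0.0519, and 0.0371 with the replicate block).

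Sfpi1 (PU.1) was well above background in 7 of 18 samples, 1 of them B6 (8 w replicate 1) and 6 of them DBA/2 at 2, 4, 8 or 9 w. Probes entered the test if well above background in at least 2 samples. Sfpi1 did so mainly through the DBA/2 groups in which it was then called higher. Its calls, here and in the counts of genes, thus lend no support of their own. Its DBA/2 levels were -5.86 and -6.32 at 0 w, -4.66 and -5.03 at 2 w, -4.54 and -4.57 at 4 w, -4.22 and -4.40 at 8 w and -4.45 and -4.36 at 9 w, with every later sample above both 0 w samples. As neither 0 w sample was well above background, the rise has a bound only, of at least 1.01-fold, 1.24-fold, 1.47-fold and 1.37-fold at 2, 4, 8 and 9 w (adjusted p = 0.00745, 0.00263, 0.000581 and 0.000782). In B6 mice the levels ran from -7.03 to -4.99, and no difference against 0 w passed (adjusted p of 0.0507 at 8 w and 0.061 at 4 w, with differences of 0.75 and -0.76), whereas both passed with the replicate block (adjusted p = 0.00855 and 0.0104). The calls at weeks 2 and 4 in DBA/2 mice were lost with normexp, and that at 2 w also without DBA/2 0 w replicate 2 or DBA/2 2 w replicate 1.

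Between the strains, 8 of the 9 genes were higher in DBA/2 mice at 4 w, all but Cebpa, where 32.1% of all tested probes were called, 19.1% higher and 13% lower. Csf3r was 3.36-fold higher (log2 1.75, adjusted p = 1.98e-05), Cebpd 3.24-fold (adjusted p = 3.49e-07), Csf2rb2 2.87-fold (adjusted p = 3.34e-06), Csf2rb1 2.42-fold (adjusted p = 4.28e-06), Csf2ra 2.07-fold (adjusted p = 4.84e-05) and Cebpb 1.56-fold (adjusted p = 0.00246). For each of these 6 genes, by its brightest probe, both DBA/2 samples stood above both B6 samples. The second probe of Csf2rb1 did not show this at 4 w, with -0.08 and -0.04 in DBA/2 mice and -0.07 and 0.35 in B6 mice. Sfpi1 was at least 1.16-fold higher (adjusted p = 8.45e-05) and Gfi1 at least 1.48-fold higher (adjusted p = 0.0487), and with normexp both turned, to -0.52 and -0.43, where the median of all probes was -0.53. The call of Gfi1 was also lost in 14 of 18 fits that left out 1 sample.

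At 0 w, 4 genes were already higher in DBA/2 mice and 1 lower (32.7% of probes called, 17.2% higher and 15.4% lower). Cebpd was 1.97-fold higher (adjusted p = 1.35e-05), Csf3r 1.94-fold (adjusted p = 0.00101), Csf2rb2 1.81-fold (adjusted p = 0.000156) and Csf2rb1 1.22-fold (adjusted p = 0.0301), the last a call lost without any 1 of the 4 samples compared. The second probe of Csf2rb1 lay at -0.23 and 0.28 in DBA/2 mice and at -0.03 and 0.29 in B6 mice at 0 w. Cebpb was 1.69-fold lower (log2 -0.76, adjusted p = 0.000902), a difference of 0.0620 in the deposited value table, whose unscaled values put the median of all probes at 0.89. At 8 w, 4 genes were higher and none lower (25.4% called, 10.4% higher, 15% lower): Cebpd 1.72-fold (adjusted p = 7.41e-05), Cebpb 1.62-fold (adjusted p = 0.00195), Csf2rb2 1.44-fold (adjusted p = 0.00372) and Sfpi1 1.95-fold (adjusted p = 0.0147, with 1 of the 2 B6 samples well above background, and lost without B6 8 w replicate 2 or DBA/2 8 w replicate 1). The strains differed at 8 w by 0.37 for Csf3r (95% interval 0.03 to 0.70, adjusted p = 0.11, and 0.0212 with the replicate block), -0.09 for Csf2ra (-0.32 to 0.14, adjusted p = 0.571) and 0.02 for Csf2rb1 (-0.18 to 0.21, adjusted p = 0.902). With normexp, 2 genes passed at 0 w, 5 at 4 w and 1 at 8 w.

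The change from 0 w was larger in DBA/2 than in B6 mice at 4 w for 7 of the 9 genes (11.8% of probes called, 7.37% higher, 4.48% lower). The DBA/2 change minus the B6 change was 1.40 for Cebpb (SE 0.17, adjusted p = 0.000626), 0.99 for Csf2rb1 (SE 0.12, adjusted p = 0.000788), 0.90 for Csf2ra (SE 0.15, adjusted p = 0.00358), 0.79 for Csf3r (SE 0.21, adjusted p = 0.0403), 0.72 for Cebpd (SE 0.11, adjusted p = 0.00256) and 0.66 for Csf2rb2 (SE 0.14, adjusted p = 0.0139) on the log2 scale. Sfpi1 passed as well (adjusted p = 0.00212), with no size given, since in 3 of its 4 groups neither sample was well above background. Its probe had entered the test mainly through DBA/2 samples after 0 w. The second probe of Csf2rb1 gave -0.09 (adjusted p = 0.907). The call of Csf3r was lost with quantile normalization (adjusted p = 0.0664) and in 14 of 18 fits that left out 1 sample (highest adjusted p = 0.124), that of Csf2rb2 without B6 4 w replicate 2 (adjusted p = 0.055), and with normexp Cebpb alone passed.

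At 8 w the change differed for 1 of the 9 genes, Cebpb, by 1.45 (SE 0.17, adjusted p = 0.000489), where 17.5% of probes were called, 7.19% higher and 10.3% lower. The difference was -0.59 for Csf3r (95% interval -1.07 to -0.11, adjusted p = 0.091), -0.33 for Csf2rb2, -0.27 for Csf2rb1, -0.24 for Csf2ra and -0.20 for Cebpd (adjusted p of 0.146, 0.18, 0.319 and 0.27). These 5 did not pass, nor did Sfpi1 (1.03, adjusted p = 0.0671), Cebpa (0.50, adjusted p = 0.744) or Gfi1 (-0.46, adjusted p = 0.599). With the replicate block 3 genes passed, Cebpb, Csf3r (-0.59, adjusted p = 0.0158) and Sfpi1 (1.03, adjusted p = 0.012), and the same 3 passed with slide as a block.

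Neutrophil markers rose at the same weeks as Cebpd, Csf3r and the brightest probe of Csf2rb1 in both strains. In B6 mice Csf2ra and Cebpb did not pass at 2 w, with 1 sample, or at 4 w, with 2 samples. All 8 neutrophil markers with a probe (S100a8, S100a9, Mmp8, Mmp9, Retnlg, Cxcr2, Fpr1 and Il1r2) were well above background in every sample and rose at each week against 0 w in both strains. Their median log2 difference was 1.37, 1.64, 2.47 and 1.38 at 2, 4, 8 and 9 w in DBA/2 mice and 1.12, 1.15, 2.54 and 1.53 in B6 mice. Their summed level was 57.4 to 57.6 times the 75th percentile at 0 w in B6 mice, 190 at 2 w, 141 to 151 at 4 w, 428 to 430 at 8 w and 225 at 9 w, and 106 to 107, 280 to 290, 334 to 360, 697 to 775 and 263 to 322 in DBA/2 mice. The part of the neutrophil markers in the results above was not tested.

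Of 9 tested genes of granule proteins made in immature neutrophils, 3, 4, 6 and 5 rose in DBA/2 mice at 2, 4, 8 and 9 w and 5, 3, 5 and 5 in B6 mice, with none lower. Of all tested probes, 7.91%, 7.58%, 10% and 13.4% were called higher at these weeks in DBA/2 mice. In B6 mice 5.28%, 6.02%, 11% and 5.48% were called higher, and 9.66% lower at 4 w. Monocyte markers rose in DBA/2 mice, 7 of 8 at 4, 8 and 9 w, with summed levels of 9.89 to 10.6 at 0 w and 18.3 to 22.2 at those weeks. In B6 mice 1 rose at week 4 (F13a1) and 5 fell, most of all Fn1, a gene that liver also expresses, and 4 rose at 8 w, with summed levels of 7.96 to 8.30 at 0 w, 11.5 to 12.0 at 4 w and 19.9 to 20.5 at 8 w. The sum at 4 w thus rose with F13a1 while most of the markers fell. At 2 w in B6 mice F13a1 fell 2.17-fold, when platelet markers fell too (Gp5 3.59-fold), and which cells carried F13a1 was not tested. Of 7 tested macrophage markers, 6 rose in DBA/2 mice at 4, 8 and 9 w, and 1 rose and 4 fell in B6 mice at 4 w. Cd163, counted in each of these, was well above background in 4 of 18 samples, DBA/2 at 4 w among them. Its calls, here and in the difference of changes, thus lend no support of their own. At 4 w the change of 6 of 8 monocyte markers and of 6 of 7 macrophage markers differed in favour of DBA/2 mice, beside 5 of 8 neutrophil markers. In that comparison 7.37% of all tested probes were called higher. Whether monocytes or neutrophils carried the change of the receptors was not tested.

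**Figure D5:**
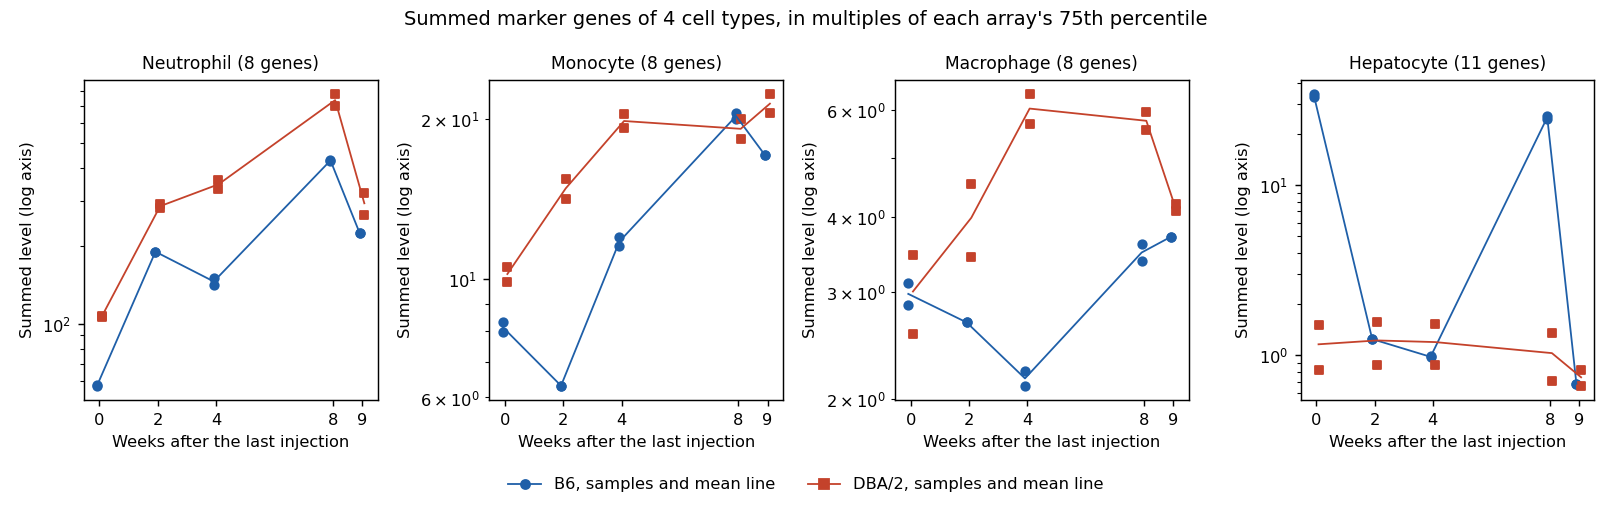
Summed level of the marker genes of 4 cell types on log axes, in multiples of the 75th percentile of each array, by weeks after the last injection, 1 point a sample, blue circles for B6 and red squares for DBA/2 mice, lines through the group means. Neutrophil markers rise after 0 w in both strains, and hepatocyte markers are high in B6 mice at weeks 0 and 8 only.

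Of the other blood cells, T-cell markers fell at 8 w, 7 of 9 in DBA/2 and 3 of 9 in B6 mice, and B-cell markers fell in DBA/2 mice, 5 of 7 at 4 w and at 8 w, and in B6 mice 3 of 7 at 4 w. NK-cell markers rose in DBA/2 mice, 3 of 6 at 4 w and 4 of 6 at 8 w, and fell in B6 mice, 5 of 6 and 4 of 6. Of 7 tested eosinophil and basophil markers, 2 and 3 rose in DBA/2 mice at weeks 4 and 8. Among those at 8 w was Prg2, by at least 3.48-fold. It was well above background in 4 of 18 samples, DBA/2 at 8 w among them, so that its call lends no support of its own. All 8 erythroid markers fell in B6 mice at 8 w. Of 5 platelet markers, 5 rose at 4 w in DBA/2 mice, while B6 mice had 4 of 5 higher at 4 w and again at 8 w. Of all tested probes, 7.58% were called higher and 7.22% lower at 4 w in DBA/2 mice, and 10% and 14% at 8 w. In B6 mice these shares were 6.02% and 9.66% at 4 w, and 11% and 10.2% at 8 w. Of 11 hepatocyte markers, all fell in B6 mice at 2, 4 and 9 w, when 0 w is the reference, and 1 fell at 8 w, with B6 at 0 w and at 8 w both high. An alternative chosen after seeing the data took B6 at 4 w in place of 0 w as the reference for 9 w, both groups low in hepatocyte markers. With 1 sample at 9 w, the difference was 0.82 for Cebpb, 0.98 for Cebpd, 0.94 for Csf3r and 0.84 for Csf2ra. It was 0.74 for Csf2rb1 and 0.87 for Csf2rb2, and among the dim genes 0.05 for Cebpa, 1.04 for Gfi1 and 0.55 for Sfpi1. The part of liver RNA in the changes of the 9 genes was not tested.

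The ligands of these receptors were at the limit of the array. Csf2, the gene of GM-CSF, was well above background in no sample, and Csf3, that of G-CSF, in 2 (DBA/2 0 w replicate 1 and DBA/2 9 w replicate 1). Of 10 tested ligands and other receptors, 2 rose at 4 w in DBA/2 mice and 3 at 8 w with none lower. In B6 mice 1 rose and 2 fell at 4 w and 1 fell at 8 w. Of all tested probes, 14.8% and 24% were called at 4 and 8 w in DBA/2 mice and 15.7% and 21.2% in B6 mice. The list is short, and its counts are given as a description. Csf1r, the M-CSF receptor of monocytes and macrophages, rose 2.47-fold at 4 w and 3.54-fold at 8 w in DBA/2 mice (adjusted p = 0.000151 and 9.64e-06). In B6 mice Csf1r fell by 0.55 on the log2 scale at week 4 (adjusted p = 0.0176) and differed by 0.33 at week 8 (adjusted p = 0.0998), and the change differed between the strains by 1.86 and 1.49 (adjusted p = 0.000171 and 0.000639). Csf1, its ligand, differed by 0.09 and -0.06 in DBA/2 mice (adjusted p = 0.922 and 0.917). Il6 was at least 1.51-fold and at least 1.14-fold higher in DBA/2 mice at weeks 4 and 8 (adjusted p = 0.00677 and 0.0273), from a probe well above background in 3 samples.

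The receptors for IL-3 and IL-5 pair their own alpha chains with the beta chains above. Il3ra differed by -0.09 and -0.50 in DBA/2 mice at weeks 4 and 8 (adjusted p = 0.897 and 0.218), and it fell by 1.12 on the log2 scale in B6 mice at week 8 (adjusted p = 0.0166). Il5ra, well above background in 7 samples, fell by 1.09 in B6 mice at week 4 (adjusted p = 0.0195) and differed by -0.43 in DBA/2 mice (adjusted p = 0.334). Neither alpha chain rose with Csf2rb1 and Csf2rb2 at these weeks.

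Among 23 tested other factors of myeloid fate, 4 fell and none rose at 2 w in DBA/2 mice, 6 rose and 3 fell at 4 w, and 6 rose and 8 fell at 8 w and again at 9 w. In B6 mice 1 rose and 4 fell at 4 w, and 3 rose and 3 fell at 8 w. Of all tested probes, 15.7%, 14.8%, 24% and 27.7% were called at 2, 4, 8 and 9 w in DBA/2 mice and 15.7% and 21.2% at weeks 4 and 8 in B6 mice. The shares of this list at 2 w in DBA/2 mice and at both weeks in B6 mice lie near that background. Those at 4, 8 and 9 w in DBA/2 mice lie above it, with rises and falls mixed. Trib1, a pseudokinase known to promote C/EBPalpha degradation, rose 3.06-fold at 4 w and 1.98-fold at 8 w in DBA/2 mice (adjusted p = 0.000739 and 0.00631). Irf8, the factor that favours monocytes over granulocytes, differed by 0.04 and -0.20 in DBA/2 mice (adjusted p = 0.845 and 0.129) and fell by 0.41 in B6 mice at week 4 (adjusted p = 0.0126). Id1, an inhibitor of helix-loop-helix factors, rose 3.1-fold at 8 w in DBA/2 mice (adjusted p = 0.00368) and at least 3.1-fold in B6 mice (adjusted p = 0.000202), a direction that turned to -0.25 in B6 mice with normexp. Spic, an Ets factor of macrophages, rose 2.63-fold at 8 w in DBA/2 mice (adjusted p = 0.00469). Egr1, an immediate-early factor, rose 2.80-fold at 4 w and fell by 1.47 at 8 w in DBA/2 mice (adjusted p = 0.0396 and 0.028). Lef1 and Ets1, factors also strong in T cells, fell by 0.93 and 0.60 at 4 w and by 1.20 and 0.85 at 8 w in DBA/2 mice (adjusted p = 0.00249, 0.00356, 0.000276 and 0.000251). T-cell markers fell beside them at 8 w as given above, while at 4 w Cd3d, Cd5 and Cd8b1 fell and the other T-cell markers did not pass.

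Of 14 genes of signalling below the receptors, 5 rose and 1 fell in DBA/2 mice at 2 w, 6 rose at 4 w with none lower, 5 rose and 1 fell at 8 w and 5 rose at 9 w. In B6 mice 2 rose and 4 fell at 2 w, 2 rose and 3 fell at 4 w, 6 rose and 2 fell at 8 w and 3 rose and 1 fell at 9 w. Of all tested probes, 15.7%, 14.8%, 24% and 27.7% were called at 2, 4, 8 and 9 w in DBA/2 mice. In B6 mice these shares were 13%, 15.7%, 21.2% and 9.33%. Socs3, the feedback inhibitor of the G-CSF receptor, rose 3.22-fold and 3.60-fold in DBA/2 mice at weeks 4 and 8 (adjusted p = 1.77e-06 and 2.53e-07) and 2.41-fold and 5.73-fold in B6 mice (adjusted p = 5.21e-06 and 1.04e-07). The change of Socs3 was larger in DBA/2 mice at 4 w by 0.42 (adjusted p = 0.0259) and larger in B6 mice at 8 w, a difference of -0.67 (adjusted p = 0.00209). Jak1, a kinase bound to cytokine receptors, fell by 0.48 at 8 w in DBA/2 mice (adjusted p = 0.000773).

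The genes whose pattern over the 18 samples was most like each member's were searched among 10882 probes well above background in all samples and are given by Pearson's r as a description. Csf3r was most like Rnf149 (r = 0.990), Bst1 (0.989) and LOC634416 (0.988). Csf2rb1 was most like Lilrb3 (0.989), Sirpb1 (0.985) and Mefv (0.984), and Csf2rb2 like Tlr6 (0.980), Pla2g7 (0.976) and Sirpb1 (0.975). Csf2ra was most like Lass6 (0.972), Svil (0.969) and App (0.969). Cebpd was most like Fgl2 (0.986), Tnfaip2 (0.986) and LOC634416 (0.985), and Cebpb like 2410001C21Rik (0.953), Hmox1 (0.946) and Hspa8 (0.935). The samples share strain, week and slide, and r over them carries no p. The receptor chains thus had closer neighbours in pattern than Cebpb, the gene with the lowest leading r of these 6.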

How the data were processed

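Total RNA of blood leukocytes was measured on Agilent whole mouse genome arrays of 1 colour. The authors deposited scanner tables of processed intensity, background-subtracted by Agilent Feature Extraction (version 9.5.3.1 per the file headers). They also deposited a value table of processed intensity, of which log2 was taken and whose scaling is not given in the sources used here. Neither holds counts, so the number of arrays limits the precision. The 10 genes, the other lists and the comparisons were chosen with earlier results of these data known.

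Control and outlier spots were left out, saturated spots kept, and spots of a probe averaged. From log2 of the processed intensity the 75th percentile of each array was subtracted, taken over the 11536 probes that all 19 arrays showed well above background. The 2 arrays of B6 0 w replicate 2 were averaged, giving 18 samples. Probes well above background in at least 2 samples (22939 of 41174) were fitted in limma 3.58.1 (R 4.3.3), with a mean for each of the 10 groups and 8 residual degrees of freedom, and p-values were adjusted by Benjamini-Hochberg over all of them at a threshold of 0.05. SD and SE come from this shared fit, which lends a spread to the groups of 1 sample. Where no array of a group showed a probe well above background, its fold is a bound against the higher of its signal and the lowest signal well above background. The scripts were tested on simulated data.

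The text names the 9 genes with a probe by their brightest probe, set members of the pathway lists (Csf1r, Irf8, Csf1, Csf2, Csf3, Il5ra, Il3ra and Socs3), the 2 largest rises and 2 largest falls past the threshold of each pathway list at weeks 4 and 8 in DBA/2 mice, and the 3 most alike patterns. Of the signalling list, 1 gene is not reported here and was left out of its counts. Alternatives were other scalings, quantile normalization, a normexp background correction with an offset of 50, a floor of 10, other filters on dim probes, array weights, blocks by slide and by replicate number, and leaving out each sample. Promoters came from RefSeq (GRCm38.p6). Figures were drawn with Python 3.11.15 and matplotlib 3.10.9.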

Additional observations from a re-analysis of the deposited data

Results flagged for a closer look

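The change from 0 w differed between the strains, by the test of the DBA/2 change minus the B6 change, in the following genes. No group held more than 2 samples, so no sample was tested as standing apart. At 4 w the difference on the log2 scale was 1.40 for Cebpb, 0.72 for Cebpd, 0.79 for Csf3r, 0.90 for Csf2ra, 0.99 for Csf2rb1 and 0.66 for Csf2rb2. Sfpi1 gave a fitted 2.29, whose size has no footing, since in 3 of its 4 groups neither sample was well above background. Among the other genes of the pathway it was 1.86 for Csf1r, 1.63 for Trib1, 0.46 for Irf8, 0.42 for Socs3 and -0.89 for Lef1. At 8 w it was 1.45 for Cebpb, 1.49 for Csf1r, -0.48 for Jak1, -0.53 for Ets1 and -0.67 for Socs3. Hepatocyte markers were high in B6 mice at 0 w and not at 4 w, and their part in the differences at 4 w was not tested.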

How the results depend on the processing

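The counts of genes called out of 9 kept within 1.5 times their value under every other alternative run, except as follows. The shares of all tested probes called under these alternatives are not given beside the counts, here or above. A count that moved is therefore not set apart from a move of the whole array. With normexp the count fell in B6 mice from 3 to 0 at 2 w and from 5 to 0 at 4 w (limma, 1 and 2 genes at an unadjusted p under 0.05) and from 6 to 1 at 9 w, between the strains from 5 to 2 at 0 w, from 8 to 5 at 4 w and from 4 to 1 at 8 w, in DBA/2 mice from 6 to 2 at 2 w and from 7 to 4 at 4 w, and for the difference of changes at 4 w from 7 to 1. By a 2-fold change without a test, the counts were 0 and 2 in B6 mice at 2 w and 4 w, 0 between the strains at 0 w and at 8 w, 3 in DBA/2 mice at 2 w, and 3 and 2 for the difference of changes at 4 w and 8 w. With no filter on dim probes it was 3 in B6 mice at 4 w. For the difference of changes at 8 w, where 1 gene passed, it was 6 in the value table without scaling, 2 with a floor of 10, 3 with the replicate block and 3 with slide as a block. Leaving out 1 sample at a time gave 3 to 6 for B6 at 4 w and 1 to 2 for the difference of changes at 8 w, where B6 8 w replicate 1, DBA/2 0 w replicate 1 and DBA/2 8 w replicate 1 each gave 2. The other ranges were 4 to 6, 7 to 7, 7 to 8 and 7 to 8 for DBA/2 at 2, 4, 8 and 9 w, 2 to 3, 5 to 6 and 5 to 6 for B6 at 2, 8 and 9 w, 4 to 5, 7 to 8 and 3 to 5 between the strains at 0, 4 and 8 w, and 5 to 7 for the difference of changes at 4 w.

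Deviations from the group means of same-numbered samples correlated at 0.286 to 0.455 among B6 at 0, 4 and 8 w, at 0.334 to 0.403 among DBA/2 at 0 to 8 w and at 0.153 to 0.354 between DBA/2 at 9 w and B6, and at -0.0109 to 0.0988 for the other pairs (12 of 28 above 0.1), so that the numbers did not pair all groups. With the replicate block, counts were 7, 7, 8 and 8 in DBA/2 mice, 3, 6, 7 and 6 in B6 mice, 5, 8 and 5 between the strains, and 7 for the difference of changes at 4 w. It changed no call of the 9 genes beside those given with it above, each of which gained the call. Slide as a block could not be fitted for the strain comparisons or for DBA/2 at 9 w.

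Signs turned in the value table without scaling for Cebpb (0.0620) and Sfpi1 (0.76) between the strains at 0 w, Csf2rb1 (-0.35) between the strains at 8 w, Ets1 (0.70), Il5ra (0.87), Il6 (0.77), Irf8 (0.83), Jak1 (1.02) and Lef1 (0.35) in B6 mice at 8 w, and Trib1 (-0.93) for the difference of changes at 8 w. The median of all probes in that table stood at 0.89, -0.41, 0.98 and -1.26 in those comparisons. With normexp they turned for Gfi1 (0.78) in DBA/2 mice at 9 w, Gfi1 (-0.43) and Sfpi1 (-0.52) between the strains at 4 w, and Id1 (-0.25), Spic (-0.48) and Trib1 (-0.17) in B6 mice at 8 w, where the medians were 0.78, -0.53 and -0.63. The cause was not tested. Of the single values of the 9 genes under alternatives that keep all samples, 1657 kept direction and side of the threshold, 44 gained and 80 lost the call and 6 turned. The share of probes well above background limits Gfi1, Sfpi1 and Cebpa.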
